A study of Mus musculus with 20 samples.

Results

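The hippocampus and the neocortex of mice whose excitatory neurons lack the APP family were compared. It used 10 of the 20 RNA-seq libraries of the study, chosen by their labels as the 5 hippocampus and the 5 neocortex libraries of mice with a conditional triple knockout (cTKO) of the APP family. The cTKO mice carried floxed alleles of APP, APLP1 and APLP2 together with a Camk2a-Cre transgene, whose promoter is active after birth in excitatory neurons of the forebrain. Cells in which this promoter is not active, such as glia and vessels, keep the 3 genes. The other 10 libraries, 5 of each region, came from littermates with the same floxed alleles and no Cre, which the labels call wild type and which are called control mice here. All mice were 3 months old, of both sexes, and on a mixed C57BL/6J and 129 background. RNA of the neocortex was extracted with a different kit (RNeasy Plus Universal) from RNA of the hippocampus (RNeasy Plus Mini), so that kit and region cannot be told apart in any regional difference of levels.

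The cTKO libraries held 20194692 to 25331954 counted reads in the hippocampus and 12839121 to 21816591 in the neocortex. Levels are given as CPM, counted reads scaled to a common library size by the trimmed mean of M-values (TMM), and 3 counts corresponded to between 0.123 and 0.225 CPM in these libraries. App, the targeted gene with the highest level, was at 442 ± 12.3 CPM in the cTKO hippocampus and 376 ± 30.7 CPM in the cTKO neocortex (mean ± SD, n = 5), against 1522 and 1619 CPM in controls, with no overlap between the genotypes. One hippocampus library (replicate 4) and one neocortex library (replicate 5) of the cTKO mice also held transcripts of embryonic tissue. Embryonic globin Hbb-y was at 119.6 and 195 CPM in these 2 libraries and at no more than 0.812 CPM in the other 8. The imprinted RNA H19 was at 193 and 322 CPM against at most 1.93 CPM, and the proliferation gene Top2a at 44.9 and 58.7 CPM against at most 2.71 CPM. The same neocortex library held Xist at 1235 CPM beside the Y-linked genes Ddx3y at 3.46 and Kdm5d at 4.43 CPM, whereas the other 3 cTKO libraries with Xist had at most 0.25 CPM of Ddx3y. The counts over all genes are therefore also given without these 2 libraries.

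As background, APP and its homologs APLP1 and APLP2 are transmembrane proteins that are cut by secretases to release extracellular fragments and an intracellular domain. The hippocampus is built from the granule cells of the dentate gyrus and the pyramidal cells of fields CA1, CA2 and CA3, and the neocortex from 6 layers, most of them rich in pyramidal neurons, of which layers 5 and 6 hold those that send axons out of the cortex. Each of these excitatory populations is known by transcription factors, adhesion molecules, receptors and channels that set it apart, and the same populations express the Cre used here. In bulk tissue, fewer cells of a type and less RNA per cell cannot be told apart.

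The hippocampus of cTKO mice remained clearly distinct from the neocortex. Of 14008 genes tested, 2973 were higher and 2855 lower in the hippocampus (41.6% called; edgeR quasi-likelihood test with Benjamini-Hochberg adjustment, adjusted p under 0.05), and 393 were at least 2-fold higher (2.81%) and 730 at least 2-fold lower (5.21%), together 8.02% of the genes tested. The hippocampus and neocortex libraries did not overlap for 3999 genes (28.5%). Without the 2 libraries with embryonic reads, 5274 of 13825 genes were called (38.1%), 1094 of them with at least a 2-fold difference (7.91%). Over the 13825 genes tested both ways, 4997 were called in both fits with the same sign, 761 only with all 10 libraries, 277 only with 8, and none with opposite signs.

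The 8 genes with the largest differences toward the hippocampus included secreted proteins, an ion exchanger, a homeodomain factor and a gene of the choroid plexus. C1ql2, a secreted C1q-like protein of mossy fibre synapses, was at 176, 176, 93.3, 134 and 162 CPM in the 5 hippocampus libraries and at 7.86, 4.26, 5.75, 5.01 and 4.06 CPM in the neocortex, so that the groups were far apart (log2 fold change 4.77, SE 0.22, adjusted p = 2.14e-08). Lct, which encodes lactase, reached 46.1 ± 17.8 CPM in the hippocampus and 1.68 ± 0.408 CPM in the neocortex (SD, n = 5), a 27.2-fold difference. Slc9a4, a sodium-proton exchanger, was at 25 ± 1.53 against 0.848 ± 0.395 CPM, Spink8, a serine protease inhibitor, at 9.82 ± 4.97 against 0.298 ± 0.199 CPM, and Lefty1, an antagonist of Nodal signalling, at 7.0 ± 0.705 against 0.351 ± 0.164 CPM. The LIM homeodomain factor Lhx9 differed 22.4-fold (log2 fold change 4.49, SE 0.28, adjusted p = 1.62e-07). The desmosomal protein gene Dsp was at 25.3, 47, 32.5, 43.8 and 37.4 CPM in the hippocampus and at 0.813, 0.93, 0.437, 0.369 and 7.07 CPM in the neocortex, where the last and highest value belonged to the library with embryonic reads. Its log2 fold change was 4.43 with all libraries and 5.75 without the 2. Ttr, which encodes transthyretin and is a marker of the choroid plexus, had the largest fold change with all libraries (log2 fold change 5.27, SE 0.6, adjusted p = 2.55e-05), with 73.1, 109, 96.3, 139 and 529 CPM in the hippocampus against 2.37 to 7.87 CPM in the neocortex. Without hippocampus replicate 5, the highest, its log2 fold change was 4.41, below that of C1ql2. The summed choroid plexus markers were at 113 to 606 CPM in the hippocampus and 7.96 to 16.4 CPM in the neocortex. Ttr is on that list and made up most of each hippocampal sum, so the sum is not separate from Ttr.

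Toward the neocortex, the largest difference was that of Igfn1, an immunoglobulin-like and fibronectin type III domain gene, at 1.27, 0.218, 0.617, 0.379 and 0.382 CPM in the hippocampus and 61.2, 42.8, 35.9, 24.9 and 39.8 CPM in the neocortex (log2 fold change -6.12, SE 0.36, adjusted p = 1.03e-07). Cckbr, the receptor through which cholecystokinin acts in the cortex, was at 7.63 ± 2.42 CPM in the hippocampus and 111 ± 19.4 CPM in the neocortex (SD, n = 5), and Rasgef1c, a Ras guanine exchange factor, at 1.89 ± 0.324 against 30.4 ± 4.53 CPM. Col24a1, a fibrillar collagen gene, Dkkl1, a relative of the Dickkopf proteins, Cd4 and Sh3rf2 were also among the 8 lowest, with log2 fold changes of -4.73, -3.84, -4.53 and -4.39. The 16 genes were chosen on this comparison, for size of change and groups of libraries that do not overlap, and their values describe it. All 16 were also called with the same sign in control mice, where 58.8% of all genes tested were called.

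Genes that mark the hippocampal subfields were mostly higher in the hippocampus of cTKO mice. Of 15 genes of dentate granule cells, 11 were higher and 1 lower, against 21.2% and 20.4% of all genes. Prox1, the transcription factor that specifies granule cells, was at 73, 90.9, 113, 95.1 and 89.8 CPM in the hippocampus and 10.03, 10.2, 9.19, 10.1 and 10.9 CPM in the neocortex, and every hippocampus library was above every neocortex library (log2 fold change 3.2, SE 0.11, adjusted p = 3.30e-09). Tdo2, which encodes tryptophan dioxygenase, and Il16, a cytokine gene of granule cells, had log2 fold changes of 3.68 and 3.87. Tdo2 was at 2.83 ± 1.81 CPM in the hippocampus and 0.232 ± 0.18 CPM in the neocortex, near 3 counts. It was not tested without the 2 libraries. The member that was lower was Calb1, described below. Pdzd2, Npnt and Fam163b were not called, with log2 fold changes of 0.11, 0.2 and 0.13. Without the 2 libraries, 9 of the 15 were higher and 1 lower, and the number of called members changed by no more than 2 in any list described here.

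Of 9 genes of CA1 pyramidal cells, 6 were higher and 1, Wfs1, was lower, against 21.2% and 20.4% of all genes. Fibcd1, a receptor for acetylated groups and a marker of the field, was at 109 ± 34.6 CPM against 9.45 ± 2.32 CPM (SD, n = 5; log2 fold change 3.52, SE 0.23, adjusted p = 2.35e-07), and Zbtb20, a zinc finger factor needed for hippocampal identity, had a log2 fold change of 1.52. Of 8 tested genes of CA2, 4 were higher, among them Vit (2.99), Sostdc1, a secreted antagonist of BMPs (2.19), and Amigo2, an adhesion protein (1.84), and 2 were lower, Pcp4 (-1.0) and the phosphatase gene Ptpn5 (-0.5). Both genes are also known from neocortical or striatal neurons. Of 11 tested genes of CA3 pyramidal cells and hilar mossy cells, 7 were higher, led by Calb2, which encodes calretinin (2.28), Nnat (1.66) and the kainate receptor subunit Grik4 (1.57), and only Coch was lower (-1.11).

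The layer genes of the neocortex fell into separate patterns. Of 12 genes of upper layers, 9 were lower in the hippocampus and 1 was higher, against 20.4% and 21.2% of all genes. Cux2 and Cux1, homeodomain factors of upper-layer neurons, had log2 fold changes of -2.53 and -1.25, Rorb, a nuclear receptor of layer 4, -1.38, and Rspo1, a secreted activator of Wnt signalling, -2.95. The exception was the adhesion protein gene Mdga1, at 84.9 ± 16 CPM in the hippocampus and 28.7 ± 2.39 CPM in the neocortex (log2 fold change 1.57, SE 0.13, adjusted p = 1.58e-06). Of 13 genes of layer 6 and the subplate, 8 were lower, among them Foxp2, a transcription factor of corticothalamic neurons (-2.75, or -3.34 without hippocampus replicate 4), and Tbr1, a T-box factor (-2.1). The neurotensin receptor gene Ntsr1, which marks the same neurons, had a log2 fold change of -2.54 against -1.56 in controls (interaction adjusted p = 0.357). In this list Crym, which encodes mu-crystallin, was higher (2.21), as was the corepressor gene Tle4 (0.34). Layer 5 genes were divided differently, since 6 of 12 were higher in the hippocampus and 1 was lower. The zinc finger factor Bcl11b, which acts in layer 5 projection neurons and is also expressed in the hippocampus, had a log2 fold change of 0.86, and Hsd11b1, which regenerates active glucocorticoid, one of 1.58. Deptor, an inhibitor of mTOR, was the member that was lower (-1.71).

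Among 25 transcription factors of forebrain patterning, 11 were higher in the cTKO hippocampus and 8 were lower, against 21.2% and 20.4% of all genes. Besides Lhx9, the higher members included the bHLH factors Bhlhe22 (1.74), Neurod6 (1.41), Neurod1 (1.1) and Neurod2 (0.99), and Emx2 (0.82), which patterns the medial cortex. Of the lower members Mef2c, an activity-dependent factor, was at 175, 186, 173, 188 and 172 CPM in the hippocampus against 832, 920.3, 812, 1112 and 905 CPM in the neocortex (log2 fold change -2.35, SE 0.09, adjusted p = 5.41e-09). Satb1, Meis2 and Pbx3 had log2 fold changes of -1.11, -1.59 and -1.07. Of the 25, 19 were called in both genotypes with the same sign (38.7% of all genes), 3 in controls only (20.3% of all genes) and none in cTKO mice only (3.05% of all genes).

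**Figure D1:**
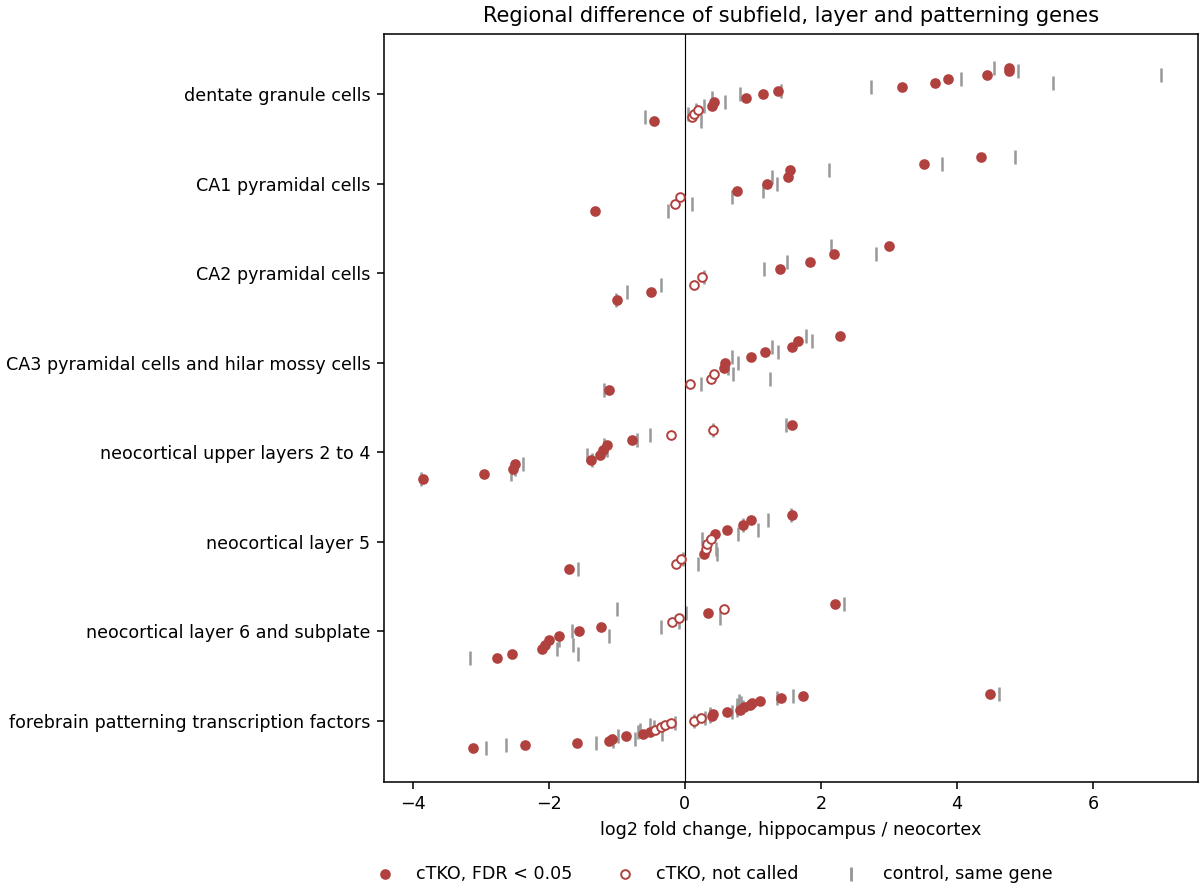
Log2 fold change between hippocampus and neocortex for each tested member of 8 gene lists, with cTKO mice as circles (filled where the adjusted p was under 0.05) and control mice as grey ticks at the same height. In cTKO mice 11 of 15 dentate granule cell genes lay to the right as called, and 9 of 12 upper-layer genes to the left, with the control ticks mostly beside the circles.

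How far these regional differences matched those of control mice was examined over the 13864 genes tested in both genotypes, whose fits share no library. In controls 8227 of 13986 genes were called (58.8%). Of the 13864, 5363 were called in both genotypes with the same sign (kept), 2808 were called in controls only (lost), 423 in cTKO mice only (gained), 1 in both with opposite signs, and 5269 in neither. Without the 2 libraries 4932 were kept, 3183 lost and 318 gained. The regional differences themselves were close across genes, with r = 0.94 and a slope of 0.883 for cTKO on control log2 fold changes. Genes are not independent replicates, and the libraries of each genotype share their kits with the region, so these values are a description. With a 2-fold rule, which 8.65% of genes tested in controls passed, 907 genes passed in both genotypes and none with opposite signs, 259 passed in controls only, and 179 in cTKO mice only. Of the 259, 153 were still called in cTKO mice with the same sign, and of the 179, 140 were called in controls.

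Few of the lost and gained genes had a regional difference that itself differed between the genotypes in a test. Of the 2808 lost genes, 94.9% had the same sign in cTKO mice, and their median absolute log2 fold change was 0.199 in cTKO mice and 0.298 in controls. The median standard error over all genes was 0.117 in cTKO mice and 0.0818 in controls. When all 20 libraries shared one estimate of the spread, 1234 genes were lost and 970 gained, in place of 2808 and 423. The interaction of region and genotype, which tests the change itself, had an unadjusted p under 0.05 for 6.27% of the lost genes and 15.8% of the gained genes, against 3.76% of all 14281 genes tested. Lost and gained genes were picked by calls in the same libraries, which by itself raises these shares. After adjustment 8 of the 14281 genes were called (0.056%), 7 with a difference shifted toward the hippocampus in cTKO mice (0.049%) and 1 with a shift away from it (0.007%). The last was Trpa1, which passed the level filter through the control hippocampus alone. Without the 2 libraries 11 of 14207 were called (0.0774%), 7 of them among the 8. All 8 were also called by the edgeR likelihood ratio test and by DESeq2, which each called 26 genes.

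**Figure D2:**
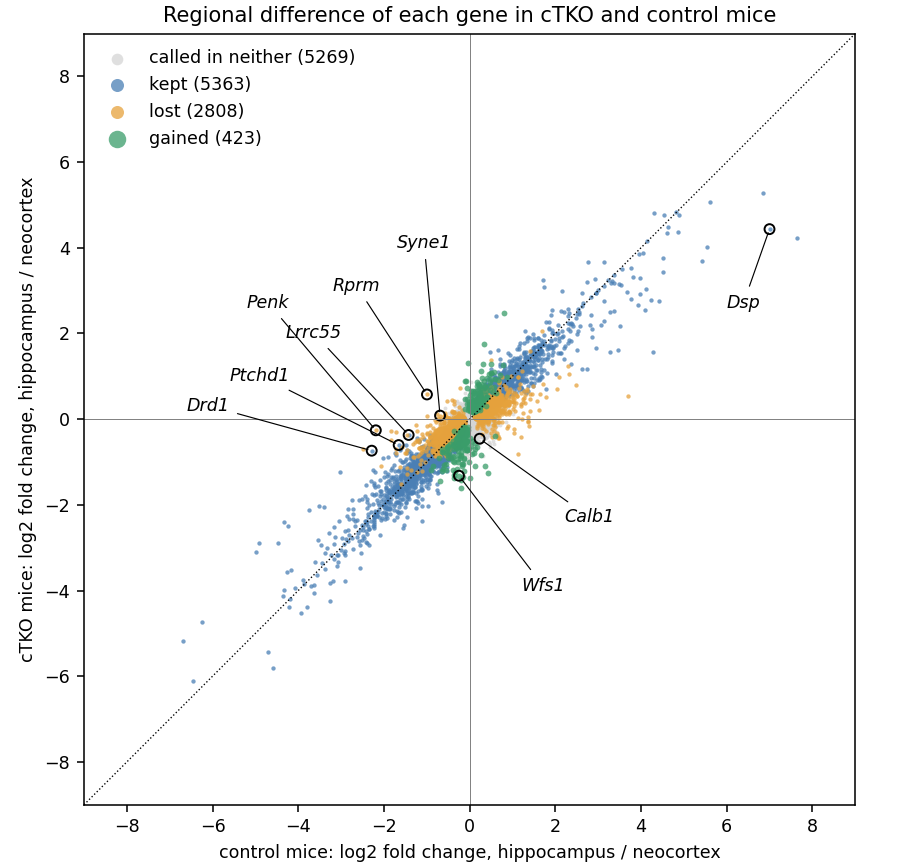
Log2 fold change between hippocampus and neocortex in control mice (horizontal) and cTKO mice (vertical), one point for each gene tested in both, coloured by class with the number of genes, and the dotted line marking equal values. Most genes lay along the line, while the circled Penk, Lrrc55, Ptchd1, Drd1 and Rprm lay above it on the left and Wfs1 and Calb1 below it.

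For 6 of the 8 interaction genes the control mice had clearly less RNA in the hippocampus than in the neocortex, and in cTKO mice the hippocampal level was nearer to the neocortical one. Penk, which encodes the enkephalin precursor, was at 29.9, 35.4, 31.2, 33.4 and 39.3 CPM in the control hippocampus and 142, 183, 153, 176 and 111 CPM in the control neocortex, without overlap, as for 43.9% of all genes tested in controls. In cTKO mice it was at 166, 181, 170.2, 279 and 112 CPM in the hippocampus and 159, 291, 269, 202 and 169 CPM in the neocortex, where the groups overlapped. The regional log2 fold change was -2.19 in controls (adjusted p = 8.31e-10) and -0.26 in cTKO mice (adjusted p = 0.392), a difference of 1.92 on the log2 scale, SE 0.28, interaction adjusted p = 0.00442. The highest hippocampal value belonged to the library with embryonic reads, and without the 2 libraries the cTKO log2 fold change was -0.56 (adjusted p = 0.0395), which is a kept difference, while the interaction remained called.

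Drd1, the D1 dopamine receptor, was at 15.5, 19.8, 22.7, 19.2 and 12.8 CPM in the cTKO hippocampus and 29.1, 40.7, 29.1, 23 and 28.2 CPM in the cTKO neocortex, against 4.37 to 5.1 and 16.3 to 28 CPM in controls. Every cTKO hippocampus library was above every control hippocampus library and below every cTKO neocortex library. The gene was chosen by the interaction test on these libraries, so this separation only describes it. The regional difference was kept in direction, with log2 fold changes of -0.74 in cTKO mice (adjusted p = 0.00413) and -2.29 in controls, and differed by 1.54 on the log2 scale, SE 0.23, interaction adjusted p = 0.00442.

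Lrrc55, an auxiliary subunit of BK potassium channels, had the smallest interaction p. It was at 22.4, 25.9, 19.8, 22.1 and 18.1 CPM in the cTKO hippocampus and 27.4, 29.2, 25.2, 26.9 and 31.7 CPM in the cTKO neocortex, with one hippocampal library inside the neocortical range, against 10.3 to 13.1 and 28.7 to 33.1 CPM in controls. Its log2 fold change was -0.37 in cTKO mice (adjusted p = 0.0117) and -1.42 in controls (interaction adjusted p = 0.00119). Ptchd1, an X-linked gene for a patched-domain protein, followed the same pattern, with 13.6, 15.5, 18.9, 18.4 and 13.7 CPM in the cTKO hippocampus and 25.3, 24.8, 18.5, 26.1 and 27.7 CPM in the cTKO neocortex, which overlapped, against 7.84 to 9.17 and 26.5 to 29.8 CPM in controls, which did not. Its log2 fold change was -0.61 in cTKO mice and -1.66 in controls (interaction adjusted p = 0.00442).

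Rprm, a cell cycle regulator that also marks layer 6 neurons, had a mean 1.49 times as high in the cTKO hippocampus as in the cTKO neocortex. It was at 98.9, 93.7, 39.9, 94 and 56.8 CPM there and 55.4, 61.4, 40.2, 57.6 and 42.7 CPM in the cTKO neocortex, against 19.5 to 24.6 and 42.9 to 48.6 CPM in controls. The cTKO groups overlapped, with a log2 fold change of 0.58 (adjusted p = 0.0600), whereas in controls it was -1.0 (adjusted p = 1.12e-08; interaction adjusted p = 0.0146). Syne1, which encodes nesprin-1 of the nuclear envelope, was at 457, 619.5, 704, 594 and 497 CPM in the cTKO hippocampus and 515, 619.9, 484, 543 and 557 CPM in the cTKO neocortex, where the groups overlapped, and at 379.8 to 482 and 609 to 741 CPM in controls, where they did not. Its interaction of 0.76 (SE 0.14, adjusted p = 0.0416) had the highest p of the 8. It was 0.0839 without the 2 libraries, and the call was lost on leaving out any of 15 of the 20 libraries (adjusted p 0.0543 to 0.114), every control neocortex library among them. With a replicate block it was 0.0599.

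In the RefSeq annotation of GRCm38.p6 the positions of these genes are chr4:4133536-4138815 for Penk, chr13:54051183-54055658 for Drd1, chr2:85188067-85198750 for Lrrc55, chr2:54084093-54085552 for Rprm, chrX:155569736-155624170 for Ptchd1 and chr10:5020192-5550692 for Syne1.

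Trpa1, an irritant-sensing cation channel, was below the level filter in cTKO mice and was not tested there. The 10 cTKO libraries held between 0 and 7 counts each, at 0 to 0.17 CPM in the hippocampus and 0.0625 to 0.316 CPM in the neocortex. The control hippocampus libraries held 27 to 58 counts (1.22 to 2.93 CPM) and the control neocortex 0 to 4 counts. It was the gene counted as shifted away from the hippocampus, with an interaction adjusted p of 0.0154, and most cTKO libraries were at or near the floor of 3 counts. Trpa1 passed the level filter of that test through the control hippocampus alone, the group where it was high. The p therefore only describes these counts. The adjusted p was 0.111 without cTKO neocortex replicate 1, 0.0859 without cTKO neocortex replicate 4 and 0.0619 with a replicate block.

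**Figure D3:**
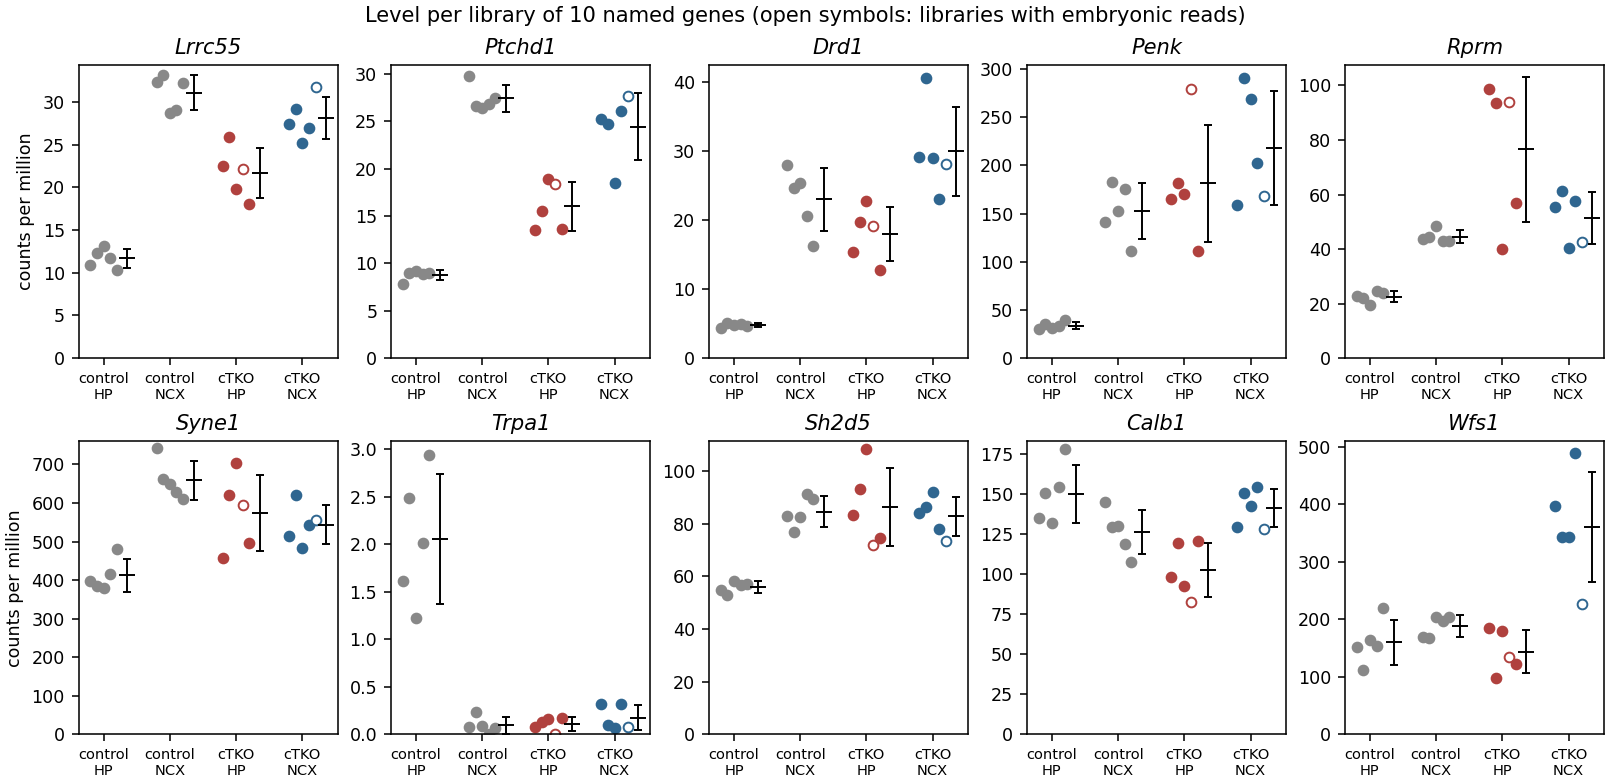
CPM in each of the 20 libraries for 7 interaction genes and for Sh2d5, Calb1 and Wfs1, with control hippocampus (HP) and neocortex (NCX) in grey, cTKO hippocampus in red and cTKO neocortex in blue; bars give mean ± SD, n = 5. Open symbols mark the 2 libraries with embryonic reads, and for Drd1, Penk, Lrrc55, Ptchd1 and Rprm every cTKO hippocampus library lay above every control hippocampus library. These genes were chosen by the interaction test on the same libraries, so this separation only describes them. The share of all genes with such a separation is not given here.

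Calb1, which encodes the calcium buffer calbindin of granule cells and CA1 neurons, was the single gene called in opposite directions. It was at 98.3, 119, 92.3, 82.7 and 121 CPM in the cTKO hippocampus, below all of the 129.6, 151, 143, 154 and 128 CPM in the cTKO neocortex (log2 fold change -0.46, SE 0.11, adjusted p = 0.00476). In controls it was at 135, 150.4, 132, 154 and 178 and 145, 129.6, 130.1, 119 and 108 CPM, overlapping, with a log2 fold change of 0.23 (adjusted p = 0.0281). The interaction had an adjusted p of 0.0927, so that the reversal did not pass the test over all genes. Wfs1, which encodes wolframin of the endoplasmic reticulum and marks CA1, was gained. It was at 184, 98.5, 179.5, 135 and 123 CPM in the cTKO hippocampus and 397, 343, 342, 490.0 and 227 CPM in the cTKO neocortex, without overlap (log2 fold change -1.32, SE 0.21, adjusted p = 0.000297), and at 111 to 221 and 167 to 205 CPM in controls (log2 fold change -0.25, adjusted p = 0.118). Its interaction adjusted p was 0.286.

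The other gained genes with the smallest interaction p were Tpm2, which encodes beta-tropomyosin, Bhlhe41, a repressor of the circadian clock, Mustn1 and Lad1. Tpm2 was at 9.15 ± 0.388 CPM in the cTKO hippocampus and 19.5 ± 2.38 CPM in the cTKO neocortex (SD, n = 5), with 14 and 12.9 CPM in controls. Bhlhe41 was at 93.9 ± 19.4 against 57.3 ± 8.45 CPM, with 54.5 and 56.8 CPM in controls, and was the only 1 of the 5 that was gained toward the hippocampus. Their interaction adjusted p-values were 0.0835, 0.0927, 0.21 and 0.258 in the order named. Besides Penk, Rprm and Syne1, the lost genes with the smallest interaction p were Sh2d5 and Lrtm2, both with an adjusted p of 0.0526. Sh2d5 was at 86.3 ± 14.9 and 82.7 ± 7.28 CPM in the 2 cTKO regions and at 56 and 84.6 CPM in those of controls, and it was called in the interaction without the 2 libraries. Exons of Sh2d5 overlap those of Kif17 on the same strand, and Kif17 was itself at 18.5 to 43.8 CPM.

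The targeted family itself showed little regional difference. App was 1.18 times as high in the cTKO hippocampus, with 442, 432, 431, 443 and 462 CPM against 407, 404, 375, 356 and 336 CPM in the neocortex (log2 fold change 0.24, SE 0.07, adjusted p = 0.0181), and its adjusted p was 0.0652 without the 2 libraries, 0.0581 without neocortex replicate 4 and 0.0521 without neocortex replicate 5. Aplp1 was at 329.9 ± 33.2 and 319 ± 46.8 CPM and Aplp2 at 259.8 ± 25.3 and 250.5 ± 12.2 CPM, neither called. In controls Aplp2 was lower in the hippocampus (-0.32, adjusted p = 0.00754; interaction adjusted p = 0.874). Of 14 genes of the family and its secretases, 4 were called in cTKO mice, all of them higher, a share of 28.6% against 41.6% of all genes. They were App, the gamma-secretase subunits Aph1a (0.25) and Aph1b (0.62), and Bace2 (0.65). Bace2 was no longer called on leaving out any cTKO library but hippocampus replicate 4 (adjusted p 0.0534 to 0.133). Without the 2 libraries 2 of the 14 were called. The main beta-secretase Bace1 had a log2 fold change of 0.08.

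Neuropeptide genes were mostly lower in the cTKO hippocampus. Of 20 tested, 11 were lower, 2 higher and 7 not called (65% called against 41.6% of all genes), and 7 of the 20 had an unadjusted interaction p under 0.05, against 3.76% of all genes. Cartpt, Adcyap1 and Tac1, which encode the precursors of CART, PACAP and substance P, had log2 fold changes of -2.17, -1.81 and -1.71, and in controls -2.17, -1.45 and -1.31. Grp, gastrin-releasing peptide, was at 106, 48.9, 36.1, 35.1 and 34.5 CPM in the cTKO hippocampus and 3.61, 4.8, 8.56, 4.11 and 6.61 CPM in the neocortex, with the first hippocampal library far above the others. Its log2 fold change was 3.26 in cTKO mice and 1.7 in controls (interaction adjusted p = 0.368). Pdyn, the dynorphin precursor of granule cells, was at 3.9, 9.67, 5.89, 4.64 and 9.25 CPM in the hippocampus and 26.2, 27, 31.3, 23.9 and 18.6 CPM in the neocortex, with log2 fold changes of -1.93 in cTKO mice and -0.64 in controls (interaction adjusted p = 0.0947). Trh, thyrotropin-releasing hormone, had -3.1 against -4.98 and Nts, neurotensin, 0.7 against 1.77. The mean of Trh was 0.818 CPM in the cTKO hippocampus and 0.125 CPM in the control hippocampus. There 3 counts corresponded to 0.128 to 0.157 CPM, so the control value of Trh rests on counts near the floor. Npy, the neuropeptide Y gene, was at 249.7, 277, 136, 143 and 80.3 CPM in the cTKO hippocampus and 169, 174, 202, 250.4 and 141 CPM in the neocortex, overlapping (-0.08, adjusted p = 0.851), against -0.79 in controls. Cck, cholecystokinin, was gained, at 207 ± 28.9 against 296 ± 60.6 CPM. Of the 7, Penk passed the adjusted interaction test and the other 6 did not.

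Of 22 peptide receptor genes, 4 were higher and 8 lower, against 21.2% and 20.4% of all genes. Npy2r, a receptor for neuropeptide Y, was at 71.2 ± 26 CPM in the hippocampus and 8.03 ± 2.21 CPM in the neocortex (log2 fold change 3.14, SE 0.28, adjusted p = 2.83e-06). At the other end, besides Cckbr, were Oprk1, the kappa opioid receptor (-3.04), and Rxfp1, a relaxin receptor (-2.37). The opioid receptors Oprm1 and Oprd1 had log2 fold changes of -0.88 and -1.14, and in controls -0.75 and -1.26. Sstr2, a somatostatin receptor, was lost, with -0.37 in cTKO mice (adjusted p = 0.312) and -1.45 in controls (interaction adjusted p = 0.707).

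Of 14 tested genes of dopamine receptors and striatal signalling, 12 were lower in the cTKO hippocampus and 1, the D5 receptor gene Drd5, was higher (92.9% called against 41.6% of all genes). Drd5 was at 16.8, 16.9, 30.8, 17.6 and 15.8 CPM in the hippocampus and 0.601 to 1.79 CPM in the neocortex. The D2 receptor gene Drd2 (-2.76), the adenosine receptor gene Adora2a (-3.51) and Rgs9 (-2.19) were among the 12. They are markers of striatal projection neurons, which lie beneath the neocortex, and all 8 striatal markers examined were lower in the hippocampus. The summed striatal markers were at 521 to 894 CPM in the cTKO neocortex libraries and 153 to 233 CPM in the hippocampus (control neocortex 479.8 to 671 CPM, control hippocampus 174 to 200.2 CPM). Drd2 ranged over 10.5 to 32.2 CPM and Adora2a over 9.35 to 26.2 CPM in the neocortex libraries. The part of striatal RNA in the regional differences of Sh3rf2, Drd1 and Penk was not tested.

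Ionotropic and metabotropic glutamate receptor genes were divided between the regions, with 7 of 24 higher and 11 lower, a share called of 75% against 41.6% of all genes. Gria1, an AMPA receptor subunit, was at 1127, 1245, 1179, 1219 and 1313 CPM in the hippocampus and 451, 448, 378, 449.7 and 396 CPM in the neocortex (log2 fold change 1.52, SE 0.08, adjusted p = 4.00e-08), against a log2 fold change of 1.57 in controls. Gria3 and Gria4 were lower (-0.46 and -1.12). Of the kainate receptor subunits, Grik4 was higher (1.57) and Grik3 lower (-1.86), against 1.28 and -1.41 in controls. The NMDA receptor subunits Grin2a and Grin1 had log2 fold changes of 0.93 and -0.25. Of 14 GABA receptor genes, 6 were higher and 5 lower. Gabra5, the alpha5 subunit that is characteristic of hippocampal pyramidal cells, was at 267 ± 33.7 CPM against 66.5 ± 5.42 CPM (log2 fold change 2.01, SE 0.1, adjusted p = 3.73e-08), and it overlaps an antisense gene of at most 3.12 CPM, where the sources used here do not state whether reads were counted by strand. Gabrd, the delta subunit of extrasynaptic receptors, was lower (-1.68). None of the 14 had an unadjusted interaction p under 0.05, against 3.76% of all genes, a share at which so short a list may well hold none.

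Of 21 serotonin and acetylcholine receptor genes, 8 were higher and 9 lower, against 21.2% and 20.4% of all genes. The serotonin receptors Htr4 (3.28), Htr5b (2.18) and Htr1a (1.47) and the nicotinic subunit Chrna7 (1.12) were higher, and Htr1d (-3.17), Htr2a (-1.19), the muscarinic receptor Chrm2 (-1.58) and Chrna4 (-1.44) were lower. All 8 were called with the same signs in controls, where 58.8% of all genes tested were called. The 8 were picked among members called in cTKO mice, so this count only describes them.

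Potassium channel genes were lower in the hippocampus more often than higher. Of 50 potassium and HCN channel genes, 29 were lower and 8 higher, against 20.4% and 21.2% of all genes, and without the 2 libraries 29 were lower and 7 higher. Kcnt1, a sodium-activated channel, was at 26.2, 30.3, 26.7, 17.6 and 24.1 CPM in the hippocampus and 165, 148, 123, 138 and 129 CPM in the neocortex (log2 fold change -2.49, SE 0.13, adjusted p = 5.63e-08). Other lower members were the ether-a-go-go channels Kcnh5 (-1.95) and Kcnh7 (-1.82), the delayed rectifier Kcna2 (-1.04), and Hcn4 (-1.79). The largest value in the other direction was that of Kcng2, a silent subunit (2.57). The Kv7 genes Kcnq3 and Kcnq5 were not called in cTKO mice, with log2 fold changes of -0.33 and -0.28, and in controls -0.21 and -0.46, both called there. Of the 50 genes, 7 had an unadjusted interaction p under 0.05, against 3.76% of all genes, and none passed after adjustment. Among sodium and calcium channel genes, 14 of 28 were lower and 4 higher. The sodium channel subunits Scn4b and Scn1a had log2 fold changes of -3.17 and -1.03, and Scn3b one of 1.19. Cacng8, an auxiliary subunit of AMPA receptors, was higher (1.28), as was the T-type calcium channel gene Cacna1h (1.18), whereas the related Cacna1g was lower (-1.0).

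Synaptic adhesion and guidance genes were called in both directions, with 19 of 48 higher and 18 lower (77.1% called against 41.6% of all genes). Of the 48, 37 were kept, 5 lost and none gained, against 38.7%, 20.3% and 3.05% of all genes. The guidance ligands Slit1 (1.75) and Sema3e (1.68) and the semaphorin receptor Nrp1 (1.63) were higher in the hippocampus. Plxnd1, the receptor for Sema3e, was lower, at 29.1 ± 6.6 against 155 ± 10.2 CPM (log2 fold change -2.41, SE 0.14, adjusted p = 1.02e-07). The ephrin receptors Epha4 (1.2), Epha6 (1.5) and Epha7 (1.46) were higher and the ephrin Efna5 was lower (-2.44). Of the cerebellins, secreted organizers of synapses, Cbln1, Cbln2 and Cbln4 were all lower, with log2 fold changes of -1.74, -2.0 and -1.03. Sema3a had a log2 fold change of -2.09 against -2.73 in controls, and Epha4 was at 0.84 in controls. Of the 48 genes, 6 had an unadjusted interaction p under 0.05, these among them, against 3.76% of all genes, and none passed after adjustment.

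Of 25 ligands and receptors of the BMP, activin and neurotrophin pathways, 5 were higher and 7 lower, a share of 48% that was close to the 41.6% of all genes. Among ligands, the neurotrophin Ntf3 was higher (2.05), and Bmp3 (-1.44), Bmp2 (-0.66) and Bmp7 (-0.71) were lower. Bdnf was not called (0.65, adjusted p = 0.0647). Among inhibitors, the activin antagonist Fst was lower (-1.79) and the BMP antagonist Chrd higher (0.53). Among receptors, Acvr1 was higher (0.83) and Ngfr, the p75 neurotrophin receptor, lower (-1.08). Ngfr was gained, at 1.73, 1.39, 1.32, 1.56 and 1.4 CPM in the hippocampus and 4.97, 2.79, 2.06, 1.53 and 4.43 CPM in the neocortex. Its log2 fold change was -1.08 in cTKO mice and 0.36 in controls (interaction adjusted p = 0.49).

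Immediate early genes, which are induced by neuronal activity, were lower in the cTKO hippocampus for 8 of 18 and higher for 2 (55.6% called against 41.6% of all genes). Egr1 was at 114, 89.5, 212, 84.1 and 101 CPM in the hippocampus and 669.6, 554, 468, 591 and 599 CPM in the neocortex (log2 fold change -2.26, SE 0.23, adjusted p = 9.31e-06), and Egr2, Npas4, Fos and Arc had log2 fold changes of -2.85, -2.05, -1.52 and -0.99. That of Egr2 was -3.62 without hippocampus replicate 3. Nr4a3 (1.16) and Fosl2 (0.78) were higher, and the adjusted p of Fosl2 was 0.0505 without hippocampus replicate 3, 0.059 without neocortex replicate 2 and 0.0627 without neocortex replicate 4. Of the 18, 9 were kept, 5 lost and 1 gained, against 38.7%, 20.3% and 3.05% of all genes. None of the 18 had an unadjusted interaction p under 0.05, against 3.76% of all genes, a share at which so short a list may well hold none.

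**Figure D4:**
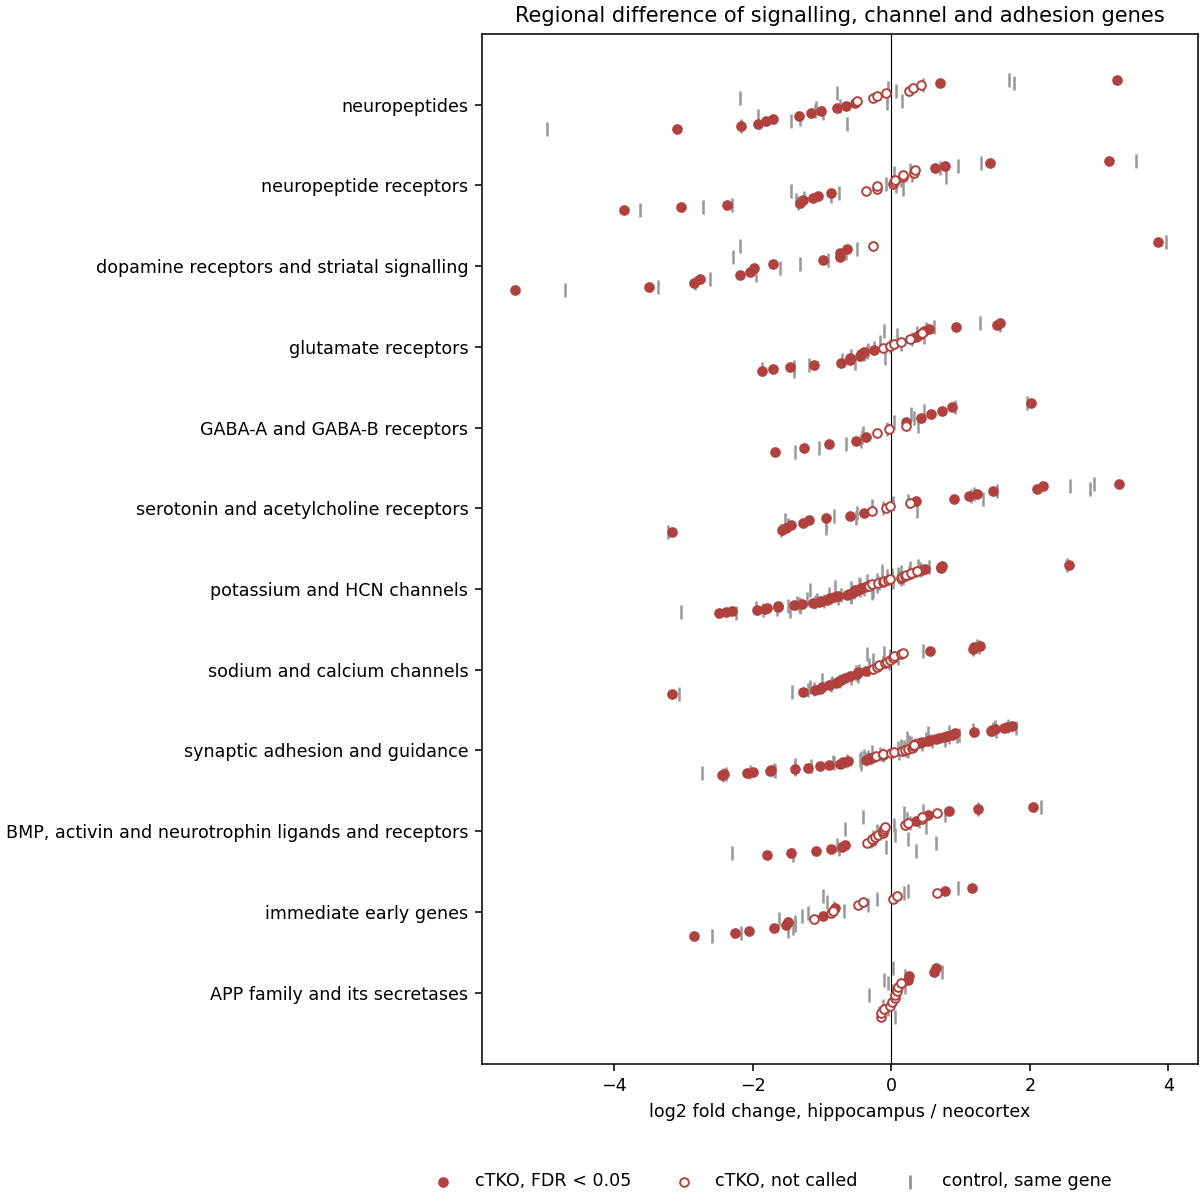
Log2 fold change between hippocampus and neocortex for each tested member of 12 lists of signalling, channel, adhesion and activity genes, drawn as in the plot of the subfield and layer lists. In cTKO mice 12 of 14 dopamine and striatal genes and 29 of 50 potassium and HCN channel genes lay to the left as called, and the APP family and its secretases stayed near 0.

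Markers of other cells also differed between the regions, and their part in the gene differences above was not tested. Of 8 astrocyte markers, 6 were higher in the hippocampus and none lower, against 21.2% and 20.4% of all genes. Their sum was 2007 to 4896 CPM against 1227 to 1615 CPM (exact permutation test, two-sided, p = 0.00794, the smallest that 252 splits of 5 against 5 allow). Gfap was uneven among libraries, at 427 to 3076 CPM in the hippocampus and 96.4 to 503 CPM in the neocortex, and replicate 4 was highest in both regions. Ependymal markers were at 21.1 to 30.7 against 9.55 to 12.3 CPM and endothelial markers at 131 to 183 against 208 to 236 CPM, and neither pair of groups overlapped (exact permutation p = 0.00794 for each). For the median over the list in place of the sum, the exact permutation p of the endothelial markers was 0.19. Interneuron markers were lower in the hippocampus for 7 of 10, with sums of 853 to 1097 against 1006 to 1294 CPM (exact permutation p = 0.0397). Oligodendrocyte markers were at 4070.3 to 7034 against 3005 to 5968 CPM (exact permutation p = 0.103) and none of the 8 was called. Microglial sums were 316 to 434 against 264 to 329 CPM (exact permutation p = 0.0238, 0.0857 without the 2 libraries). Meningeal fibroblast sums overlapped, at 31.1 to 166 against 58 to 217 CPM (exact permutation p = 0.468), and thalamic sums were 75.9 to 91.7 against 93.9 to 99.7 CPM (exact permutation p = 0.00794, or 0.873 for the median over the list), although Lhx9, on that list, was higher in the hippocampus.

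**Figure D5:**
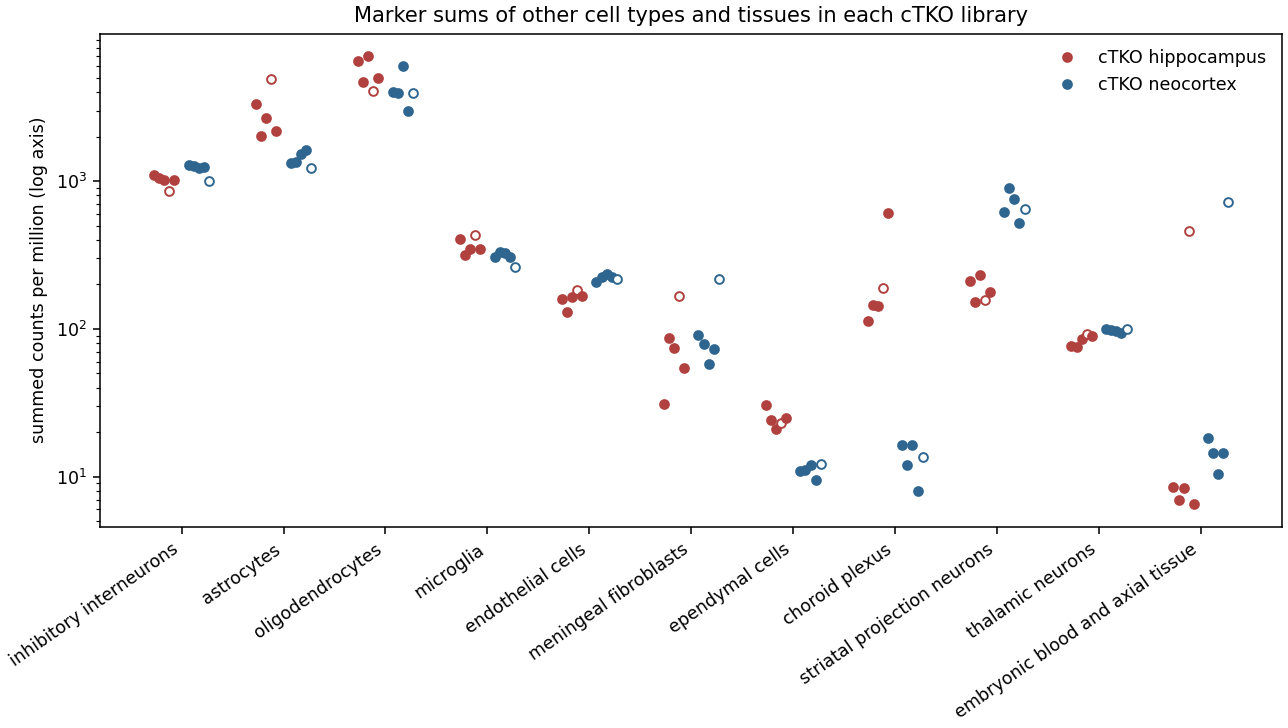
Summed CPM of the markers of 11 other cell types and tissues in each of the 10 cTKO libraries, on a log axis, with open symbols for the 2 libraries with embryonic reads. Choroid plexus, ependymal and astrocyte sums were higher in every hippocampus library than in any neocortex library, striatal and endothelial sums were lower, and the embryonic sum stood out in the 2 libraries alone.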

How the data were processed

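Poly-A RNA from the hippocampus and neocortex of the same 5 cTKO and 5 control mice was sequenced as 100 bp single-end reads. The authors aligned reads to mm10 with STAR 2.5.4a, counted them per gene with HTSeq, and deposited raw counts of 24421 gene symbols per library, with no strand setting given in the sources used here. Groups were taken from the labels. No 2 libraries were identical.

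Counts were scaled by TMM and tested with the edgeR 4.0.16 quasi-likelihood test in R 4.3.3 within each genotype and for the interaction of region and genotype, after keeping genes above 1 CPM in at least 4 libraries. The p-values were adjusted by Benjamini-Hochberg over all genes tested, and genes were called at 0.05. A fold change is hippocampus over neocortex. A difference was kept when called in both genotypes with the same sign, lost when called in controls only, and gained when called in cTKO mice only. Marker sums were compared by exact permutation over 252 splits, where 0.00794 is the smallest two-sided p, or 70 splits without the 2 libraries, where it is 0.0286.

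Named genes were the 8 highest and 8 lowest fold changes among called genes whose libraries did not overlap and whose mean reached 5 CPM, leaving out symbols of predicted and RIKEN genes, every gene called in the interaction, the 5 lost and 5 gained genes with the smallest interaction p, and the leading members of each list. Further list members given by fold change alone were chosen after their values were seen. Members and lists were chosen with earlier results of these data known. Alternatives were the edgeR likelihood ratio test, DESeq2 1.42.0, a robust fit, DESeq2's size factors, other filters, a replicate block, one fit of all 20 libraries, omission of each library and of the 2 libraries with embryonic reads, a prior count of 0.5 in place of 2 for exact tests of single genes, and, for marker sums, the median and the omission of the 2 libraries, the last chosen after the data were seen. Some genes that these rules name are not reported here. The test was checked on simulated counts.

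Both regions came from each mouse, and same-numbered libraries lay on the same side for Xist for all 10 numbers, but no source states that a number marks a mouse. Deviations from the group means correlated above 0.1 for 5 of 5 numbers in controls and for 3 of 5 in cTKO mice. The cTKO numbers 4 and 5 had r = -0.0421 and -0.0665, and each includes a library with embryonic reads. Without a stated pairing, libraries were taken as independent in the main fits, and the replicate block was an alternative. Library totals of at least 12839121 counted reads put 3 counts at no more than 0.225 CPM in cTKO libraries.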

Additional observations from a re-analysis of the deposited data

Results flagged for a closer look

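Single libraries stood apart from the other 4 of their group in 22 of 210 groups of 5 examined (10.48%), by Dixon's criterion, which chance meets in about 1 of 20. Of the genes, Ttr reached 529 CPM in cTKO hippocampus replicate 5, where the next value was 139 CPM. The choroid plexus sum, most of which was Ttr in that group, reached 606 CPM in the same library against 188 CPM in the next. The same library was highest for Fibcd1, at 168 CPM against 106 CPM. Replicate 1 of the cTKO hippocampus was highest for Grp, at 106 CPM against 48.9 CPM and for Nts, at 6.82 CPM against 4.97 CPM, and lowest for Gabra5, at 209.5 CPM against 271 CPM. Replicate 3 of the cTKO hippocampus was highest for Drd5, at 30.8 CPM against 17.6 CPM, for Egr1, at 212 CPM against 114 CPM, and for Lrtm2, at 88.0 CPM against 65.8 CPM. Tle4 was lowest in replicate 3 of both cTKO regions, at 60.7 CPM in the hippocampus and 48.6 CPM in the neocortex. Grik4 was highest in cTKO neocortex replicate 1, at 28.4 CPM. In controls, Ptchd1 was lowest in hippocampus replicate 1, at 7.84 CPM, and Rprm highest in neocortex replicate 3, at 48.6 CPM.

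The other values were those of the 2 libraries with embryonic reads. Their embryonic sums were 456 CPM in cTKO hippocampus replicate 4 and 722 CPM in cTKO neocortex replicate 5, against at most 18.4 CPM elsewhere in these groups. Foxp2 was highest in the hippocampus library, at 8.14 CPM against 3.09 CPM in the next. The neocortex library was highest for Dsp, at 7.07 CPM against 0.93 CPM, for Col24a1, at 10.7 CPM against 6.8 CPM, and for the meningeal sum, at 217 CPM against 90.5 CPM. It was lowest for Cacng8, at 26.1 CPM against 37.4 CPM, and for the interneuron sum, at 1006 CPM against 1228 CPM. The part of the embryonic reads in these values was not tested.

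The regional difference itself differed between the genotypes for the genes given here, by the interaction of region and genotype after adjustment over all genes. Of 8 genes called, 7 are given. The cTKO log2 fold change minus that of controls was 1.92 for Penk, 1.56 for Rprm, 1.54 for Drd1, 1.04 for Lrrc55, 1.04 for Ptchd1, 0.76 for Syne1. For Trpa1 it was -5.01 as fitted, which is no bound, since all cTKO libraries (0 to 7 counts) and the control neocortex (0 to 4 counts) lay at or near the floor of 3 counts and the gene passed the filter on low counts through the control hippocampus alone. Over 29 alternatives, Penk, Rprm, Drd1, Lrrc55 and Ptchd1 were called in all 29, Trpa1 in 26 and Syne1 in 12.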

How the results depend on the processing

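The count of called regional differences in cTKO mice, 5828, was 5889 with a replicate block and 5015 to 5785 without each library in turn. At least 2-fold differences numbered 1060 to 1144 without each library and 1566 with no filter on low counts, against 1123. In controls the count was 8536 with the replicate block and 7736 to 8084 without each library, against 8227. The interaction called 26 genes by the likelihood ratio test and 26 by DESeq2, each including all 8, and 18 with the replicate block, which included 6 of the 8. Without each library it called 6 to 20 genes, with 15 without cTKO hippocampus replicate 3 and 20 without cTKO hippocampus replicate 5. Kept differences ranged over 4719 to 5343, lost over 2455 to 3426 and gained over 268 to 543 without each library, with 268 gained without cTKO neocortex replicate 2. One fit of all 20 libraries gave 1234 lost and 970 gained. It gives both genotypes the same estimate of the spread.

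Among marker sums, the microglial log2 ratio was 0.159 without the 2 libraries (exact permutation p = 0.0857) and the embryonic one -0.905 (exact permutation p = 0.0286, the smallest possible). On the embryonic list, Lin28b was at 0.637 to 0.994 CPM in the cTKO hippocampus and 4.62 to 10.2 CPM in the cTKO neocortex. Hbb-y, H19, Top2a and Mki67 overlapped between the regions without the 2 libraries. In control mice the embryonic log2 ratio was -1.11. As medians over the list, the endothelial difference was -0.179 (exact permutation p = 0.190) and the thalamic one -0.0199 (exact permutation p = 0.873). The causes were not tested. Of the named genes' calls in cTKO mice, 25 were lost over all alternatives, 19 of them on leaving out 1 library, and of interaction calls 21 were lost and 28 appeared. No fold change or interaction called with all libraries reversed. For named genes not called in cTKO mice the regional difference was recomputed only without the 2 libraries, where the log2 fold change of Nov was at 0.02 against -0.07.

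The same-numbered cTKO libraries correlated best with each other for 3 of 5 numbers, and hippocampus replicate 4 correlated best with neocortex replicate 5 (r = 0.571), the other library with embryonic reads. Trpa1, at 0 to 7 counts in cTKO libraries, is limited by depth.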
